A study of Mus musculus with 4 samples.

Results

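*Fam163a* and *Fam163b* are the 2 genes of the family with sequence similarity 163 among the 32285 genes measured in single nuclei of the mouse lateral septum (LS), a forebrain region with roles in emotion and social behaviour. They were chosen by their readout in these same nuclei, since *Fam163a* was higher in oligodendrocyte precursor cells (OPCs) and lower in astrocytes of nude and BALB/c mice than of C57J mice. The differences of *Fam163a* in OPCs and astrocytes are therefore given as descriptions with no test, while *Fam163b* and the other cell types were tested. Single-nucleus RNA-seq (snRNA-seq) was performed on 4 libraries of microdissected LS from male mice aged 6 to 8 weeks, and each library pooled the tissue of 3 animals. The C57J group held 2 libraries of C57BL/6JNifdc mice, the nude group held 1 library of BALB/c nude mice, which lack mature T cells, and the BALB/c group held 1 library of BALB/c mice. The comparison was of the BALB/c background, nude and BALB/c together, with C57J. Nude and BALB/c mice share a strain background that C57J mice do not have, so in this comparison strain and immune status cannot be told apart.

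The libraries held 12558 to 17025 barcodes and 72912922 to 125998527 unique molecular identifiers (UMIs, each counting 1 captured RNA molecule). After quality limits and removal of predicted doublets, 49425 nuclei were kept, 10913 to 13075 per library. The median depth of a kept nucleus was 4019 to 5340 UMIs in the C57J 1, C57J 2 and nude libraries and 8180 UMIs in the BALB/c library. Sequencing batch 1 held C57J 1 alone and batch 2 held the other libraries, so the value within batch 2 is the one without C57J 1. Any pair of libraries shared 29 to 63 barcodes. Levels are given as counts per 1e6 UMIs of the cell type in that library (CPM), with exact Poisson 95% intervals that cover counting error only. The nuclei fell into 42 cell types with at least 20 nuclei in every library, of which 23 were types of LS neurons (LSNs), and LSN types are called by a pair of panel genes that were highest in them.

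FAM163A, also known as neuroblastoma-derived secretory protein, is a small protein with a predicted membrane-spanning segment that has been linked to ERK signalling in neuroblastoma cells. FAM163B is its little-studied paralog and is mainly found in the brain. OPCs divide and give rise to newly forming oligodendrocytes and then to myelinating oligodendrocytes (OLs), whereas astrocytes take up glutamate and potassium around synapses.

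*Fam163a* (ENSMUSG00000015484) lies on the minus strand at chr1:156075966-156205026 and has 5 annotated exons, and *Fam163b* (ENSMUSG00000009216) lies on the minus strand at chr2:27110380-27142491 and has 3 (GRCm38, GENCODE vM21). No other gene in the files overlaps either of them in this annotation. Their first coding exons, short parts of coding sequences of 504 and 501 bases, are shown because they can be aligned base by base, and are printed 5′ to 3′ from the start codon with the bases that differ between them in capitals. The *Fam163a* exon lies at chr1:156079952-156080044 and the *Fam163b* exon at chr2:27113548-27113640, both on the minus strand.
Fam163a: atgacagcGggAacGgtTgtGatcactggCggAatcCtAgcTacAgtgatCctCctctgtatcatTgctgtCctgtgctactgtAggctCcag
Fam163b: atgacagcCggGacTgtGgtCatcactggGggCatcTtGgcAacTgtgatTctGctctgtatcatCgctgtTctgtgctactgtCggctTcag
Of the 93 bases, 76 (81.7%) were identical. The 17 differing bases fell at the third place of a codon in 15 cases, at the first place in 2 and at the second place in 0. The longest run of identical bases in the 2 annotated transcripts, of 3882 and 2959 bases, was 22 bases. Identity over the rest of the coding sequence was not measured, and how the counting treated a read that matches both genes is not given in the sources used here.

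*Fam163a* was a gene of a few cell types in the LS. Its highest mean level was in *Bnc2*/*Onecut1* neurons, a cluster outside the LSNs that is called by its leading genes, at 118 and 114 CPM in C57J 1 and C57J 2, 133 CPM in the nude library and 193 CPM in the BALB/c library. Values for 4 libraries are given in this order from here on. These 792 nuclei held 1152 of its UMIs. Newly forming oligodendrocytes followed with a mean of 125 ± 62.6 CPM (SD over 4 libraries), and LS *Ddr2*/*Crhr2* neurons with 106 ± 42.6 CPM. The mean in newly forming oligodendrocytes ran from 54.9 to 185 CPM over 2 alternatives, and was 54.9 CPM when nuclei were classed by marker scores without clusters. The LS *Ddr2*/*Crhr2* neurons were above the next type, *Slc17a6* glutamatergic neurons (47.7 ± 13.1 CPM), in all 4 libraries. Among the other neighbours in the order of 42 types, only LS *Calcr*/*Otx2os1* neurons (19.0 ± 4.54 CPM) over LS *Vwa5b1*/*Pth2r* neurons (16.7 ± 4.24 CPM) held in all 4 libraries, and the rest of the neighbours were not separated. At the low end, LS *Nts*/*Etv1* neurons had a mean of 1.02 CPM with 9 UMIs in 966 nuclei. The 83 fibroblasts, too few to be among the 42 types, held 0 UMIs, which does not place them in this order.

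**Figure D1:**
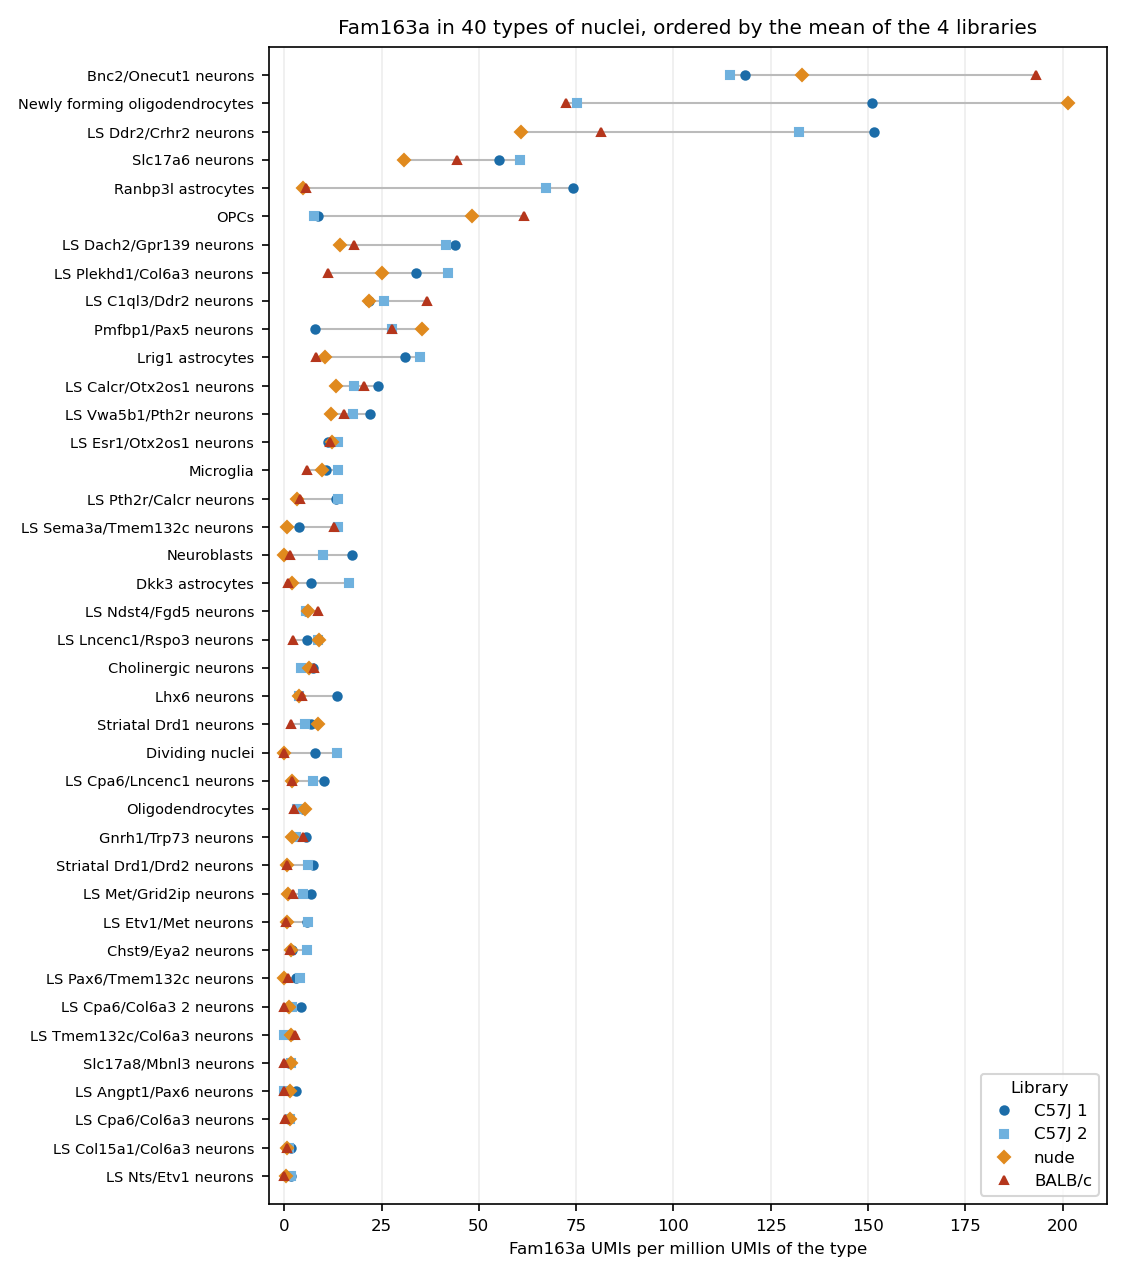
Level of *Fam163a* (CPM, linear axis) in the cell types of the LS, with 1 point per library, a line from the lowest to the highest library, and the types in order of their mean. *Bnc2*/*Onecut1* neurons, newly forming oligodendrocytes and LS *Ddr2*/*Crhr2* neurons stand at the top in every library, while OPCs (8.65 and 7.74 against 48.3 and 61.5 CPM) and *Ranbp3l* astrocytes (74.2 and 67.2 against 4.81 and 5.52 CPM) are split by background.

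The place of OPCs and *Ranbp3l* astrocytes in this order differed between the backgrounds, which restates the values for which the gene was chosen. By the mean of the C57J libraries, *Ranbp3l* astrocytes ranked 4 and OPCs 24 of the 42 types. By the mean of the nude and BALB/c libraries, OPCs ranked 4 and *Ranbp3l* astrocytes 22. *Bnc2*/*Onecut1* neurons ranked 2 and 1, and LS *Ddr2*/*Crhr2* neurons ranked 1 and 3.

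In OPCs, *Fam163a* was at 8.65 CPM in C57J 1 (95% interval 4.61 to 14.8, 13 UMIs in 449 nuclei) and at 7.74 CPM in C57J 2 (3.54 to 14.7, 9 UMIs in 446 nuclei). It was at 48.3 CPM in nude (36.9 to 62.0, 61 UMIs in 483 nuclei) and at 61.5 CPM in BALB/c (52.6 to 71.5, 170 UMIs in 495 nuclei). Both BALB/c background libraries were above both C57J libraries, and the nude interval overlapped that of BALB/c. The fitted log2 difference was 2.82 ± 0.30 (SE, 4 libraries), or 7.07-fold, and within batch 2 it was 2.93 ± 0.42. In OPCs, 24 of 10837 genes tested (0.221%) were called, meaning an adjusted p below 0.05 and a log2 difference above 0.5 in either direction, in the quasi-likelihood test of edgeR after Benjamini-Hochberg adjustment. Nothing is read from this share for *Fam163a*, which was chosen for the same contrast.

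The share of OPCs with a *Fam163a* UMI was 2.90% and 2.02% in C57J mice, 10.6% in nude mice and 24.6% in BALB/c mice. Median depth differed too, with 3222, 2525, 2483 and 5352 UMIs per OPC. With every nucleus thinned to 1000 UMIs the shares were 0.668%, 0.448%, 4.99% and 5.86%, so the nude and BALB/c libraries came close together at equal depth. No C57J OPC held more than 1 *Fam163a* UMI, whereas 10 nude OPCs and 35 BALB/c OPCs held 2 or more.

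Microglia, immune cells of the brain, were taken as a comparison for RNA that is not the nucleus's own, which was not measured in empty droplets. They held 10.7, 13.9, 9.58 and 5.81 CPM of *Fam163a*, with a UMI in 2.01%, 1.67%, 1.44% and 1.64% of nuclei at median depths of 1767, 1323, 1423 and 2658 UMIs. Their thinned shares were 1.16%, 1.11%, 0.971% and 0.330%. The thinned share and the level in C57J OPCs were below those in C57J microglia, within overlapping intervals, and are not read as expression. Both BALB/c background libraries were above microglia in OPCs. The comparison is not exact, since the 8 neuron markers summed to 3654 to 7226 CPM in microglia and to 2360 to 4667 CPM in OPCs.

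*Fam163a* in OPCs was also examined by maturation state, using *Enpp6*, *Bcas1* and *Gpr17*, genes switched on as OPCs leave the precursor state. OPCs with no UMI of these markers held 8.15, 0, 52.2 and 85.8 CPM, from 3, 0, 21 and 8 UMIs in 124, 147, 166 and 20 nuclei. These nuclei were 27.6%, 33.0%, 34.4% and 4.04% of the OPCs, a share that also depends on depth. OPCs with such a UMI held 8.82, 11.2, 46.4 and 60.7 CPM. In both subsets the nude and BALB/c levels were above those of C57J, from few UMIs in the subset without the markers. The log2 difference in that subset was 3.77 ± 0.75 (SE), in the contrast for which the gene was chosen. Most OPCs of every library held such a UMI, and whether the difference depends on maturation was not tested.

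Later in the lineage the pattern was different. In newly forming oligodendrocytes *Fam163a* was at 151 CPM in C57J 1 (114 to 196), 75.2 CPM in C57J 2 (48.6 to 111), 201 CPM in nude (132 to 295) and 72.5 CPM in BALB/c (44.3 to 112). The C57J libraries lay apart by more than their counting intervals, as did nude and BALB/c, and the groups overlapped. The log2 difference of 0.17 ± 0.47 (SE) did not pass the test (adjusted p = 0.99, edgeR), in a class of only 31 to 84 nuclei per library where 4 of 5146 genes (0.0777%) were called. In OLs, *Fam163a* was at 4.76, 3.13, 5.31 and 2.43 CPM, with 50 UMIs in 5300 nuclei and a log2 difference of -0.12 ± 0.56 (adjusted p = 1.00, edgeR; 9 of 12567 genes, 0.0716%, were called). These levels in OLs were below those in microglia in every library, though the microglia values rest on 5 to 8 UMIs each. In C57J mice the gene was thus no higher in OPCs than in microglia, high in newly forming oligodendrocytes and low again in OLs, whereas in nude and BALB/c mice it was above microglia in the OPCs as well.

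**Figure D2:**
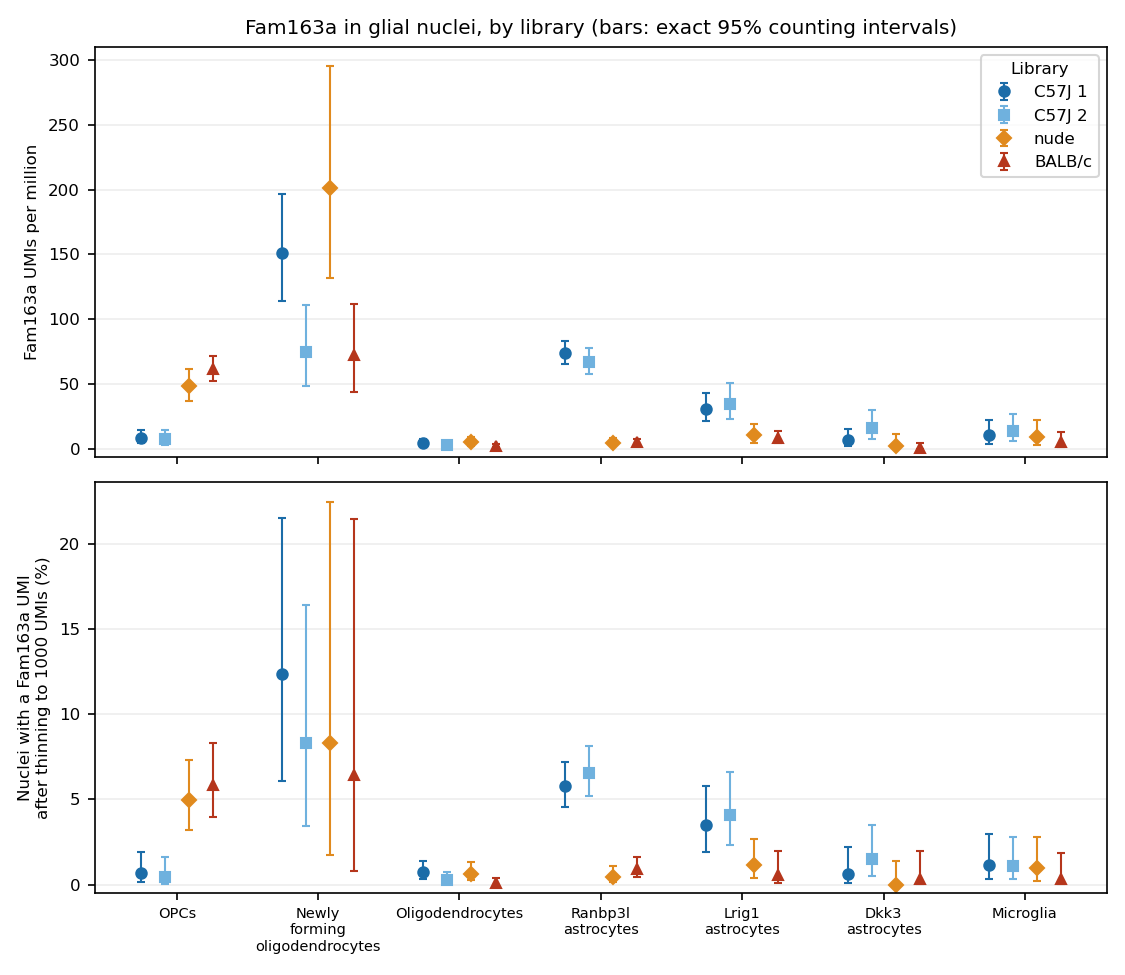
*Fam163a* in OPCs, newly forming oligodendrocytes, OLs, the astrocyte types and microglia, as CPM per library with exact Poisson 95% intervals (top) and as the share of nuclei with a UMI after thinning to 1000 UMIs with exact binomial 95% intervals (bottom). Nude and BALB/c lie above C57J in OPCs (48.3 and 61.5 against 8.65 and 7.74 CPM) and below C57J in *Ranbp3l* and *Lrig1* astrocytes, and the groups overlap in newly forming oligodendrocytes and OLs.

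In astrocytes the order of the libraries was the opposite. *Fam163a* was at 56.96 CPM in C57J 1 (50.9 to 63.5, 326 UMIs in 2062 nuclei) and 53.0 CPM in C57J 2 (46.1 to 60.7, 208 UMIs in 1885 nuclei). It was at 5.85 CPM in nude (3.71 to 8.77, 23 UMIs in 1801 nuclei) and 5.46 CPM in BALB/c (4.00 to 7.29, 46 UMIs in 1854 nuclei). The libraries of each background were alike within their counting intervals and the backgrounds did not overlap. The log2 difference was -3.21 ± 0.19 (SE, 4 libraries), 9.25-fold higher in C57J, and within batch 2 it was -3.14 ± 0.27. In astrocytes 9 of 14098 genes (0.0638%) were called in either direction, and nothing is read from this for *Fam163a*.

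A *Fam163a* UMI was found in 11.9% and 9.23% of C57J astrocytes and in 1.22% and 1.89% of nude and BALB/c astrocytes. At 1000 UMIs per nucleus these shares were 4.50%, 5.17%, 0.562% and 0.756%. The CPM of nude and BALB/c astrocytes was below that of microglia in the same libraries (9.58 and 5.81 CPM, from 5 UMIs each). The thinned share in BALB/c was above that of microglia (0.330%), so these levels were near those of microglia. In C57J, 65 and 30 astrocytes held 2 or more UMIs, against 1 in nude and 5 in BALB/c.

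The astrocyte types were not equal. *Ranbp3l* astrocytes, the most abundant type, held 74.2 and 67.2 CPM in C57J against 4.81 and 5.52 CPM in nude and BALB/c mice, a log2 difference of -3.67 ± 0.22 (SE). *Lrig1* astrocytes held 30.9 and 34.8 CPM against 10.6 and 8.22 CPM, a difference of -1.73 ± 0.34. *Dkk3* astrocytes held 6.76, 16.5, 2.03 and 0.910 CPM from 5, 10, 1 and 1 UMIs, and did not pass the filter on low counts. All 3 types had both BALB/c background libraries below both C57J libraries, and in C57J the level was highest in the *Ranbp3l* type.

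Marker genes were read beside these differences. The 6 OPC markers summed to 2778 to 4091 CPM in OPCs and 133 to 167 CPM in astrocytes. The 6 astrocyte markers summed to 5795 to 6623 CPM in astrocytes and 459 to 594 CPM in OPCs. These lists had also named the clusters, so the sums are no test of the names. The libraries of the backgrounds overlapped in each of these sums. The 4 markers of newly forming oligodendrocytes did not overlap in OPCs, with 913 and 967 CPM in C57J, 1035 CPM in nude mice and 1521 CPM in BALB/c mice. Their sum was also highest in the BALB/c library in astrocytes (383 CPM), microglia (731 CPM) and OLs (814 CPM). It was lowest in that library in LSNs (12.3 CPM), the other neuron classes, neuroblasts and dividing nuclei. The part of the shift in OPCs in the *Fam163a* difference was not tested. The 6 markers of mature OLs (*Mog*, *Mag*, *Mobp*, *Aspa*, *St18* and *Prr5l*) did not overlap, with 249 and 278 CPM in C57J against 186 and 111 CPM in nude and BALB/c OPCs, and 273 and 355 against 257 and 146 CPM in astrocytes. OLs themselves held at most 5.31 CPM of *Fam163a*. The 8 neuron markers were lowest in the BALB/c library, with 2360 CPM in OPCs against 3840 to 4667 CPM in the other libraries, and their part in the result was not tested. *Fam163a* was at most 13.8 CPM in all LSNs summed, but at 114 to 193 CPM in *Bnc2*/*Onecut1* neurons and 30.8 to 60.5 CPM in *Slc17a6* neurons.

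The transcript is also given as the share of each library's UMIs held by each group of cells. The astrocyte and OPC shares restate the counts for which the gene was chosen. Astrocytes held 23.9% and 19.9% of all *Fam163a* UMIs in C57J mice, but 2.88% in each of the other libraries. OPCs held 0.954% and 0.862% in C57J mice, 7.64% in nude mice and 10.6% in BALB/c mice. Astrocytes were 13.9 to 17.0% and OPCs 3.43 to 4.54% of the nuclei, so their numbers of nuclei differed far less than these shares. *Bnc2*/*Onecut1* neurons held 12.6% and 13.6% of the UMIs in C57J mice, 30.5% in nude mice and 37.3% in BALB/c mice, and were 1.24%, 1.31%, 1.90% and 2.02% of the nuclei. Such a share also depends on what the other cells hold. LSNs held 35.0 to 46.8% in every library. Over all nuclei together *Fam163a* was at 17.4, 17.6, 12.1 and 15.8 CPM, with both BALB/c background libraries below both C57J libraries. The OPC difference, which goes the other way, cannot be seen in these values.

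**Figure D3:**
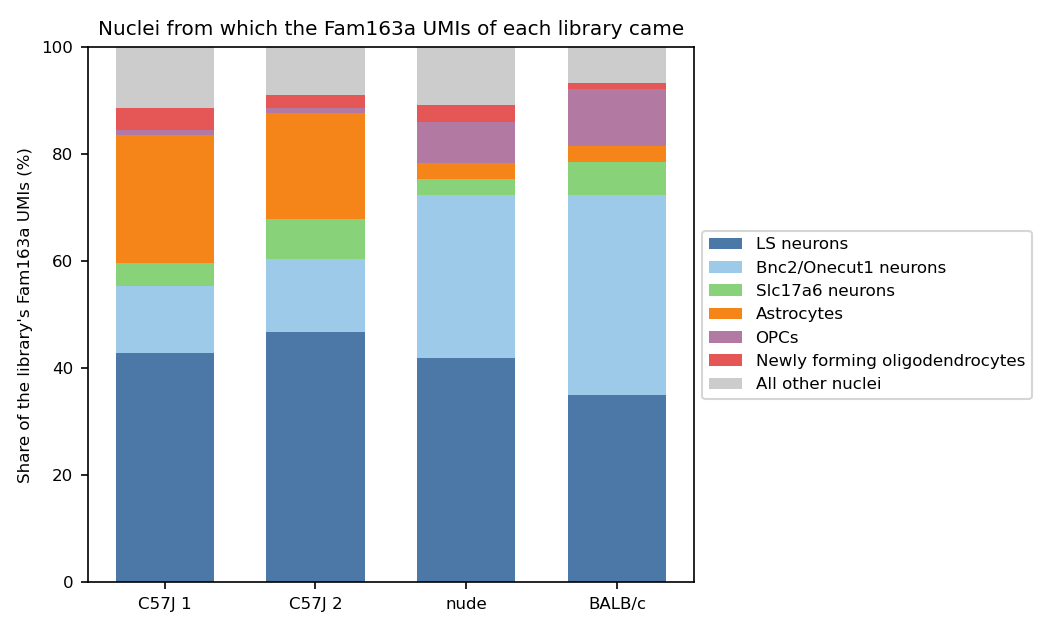
Share of each library's *Fam163a* UMIs (percent) held by each group of nuclei, stacked to the whole of the library in 1 bar per library. Astrocytes hold 23.9% and 19.9% in the C57J libraries and 2.88% in both nude and BALB/c, while OPCs and *Bnc2*/*Onecut1* neurons hold more in nude and BALB/c. The astrocyte and OPC shares rest on the counts for which the gene was chosen.

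The 42 types include OPCs and the astrocyte types, where *Fam163a* was not tested. Among the rest, it passed the filter on low counts in 22 types. It was called in 1 of these 22, against 0.749% of 429295 tests over all genes and types. The called type was LS *Dach2*/*Gpr139* neurons, where *Fam163a* was at 44.0 and 41.4 CPM in C57J mice, 14.3 CPM in nude mice and 18.0 CPM in BALB/c mice (330 UMIs in 1456 nuclei). The groups did not overlap, the log2 difference was -1.34 ± 0.21 (SE), and the adjusted p was 0.00642 (edgeR), in a type where 134 of 12012 genes (1.12%) were called. Without C57J 1, and so within batch 2, the difference was -1.30 ± 0.26. A UMI was found in 22.1%, 19.6%, 8.10% and 17.4% of these nuclei and, at 1000 UMIs per nucleus, in 4.60%, 3.87%, 0.875% and 2.57%. This was the only call for either gene outside the cells for which *Fam163a* had been chosen.

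In the remaining LSN types that were tested, *Fam163a* was not called. In LS *Ddr2*/*Crhr2* neurons *Fam163a* was at 152, 132, 60.7 and 81.3 CPM, with no overlap, a log2 difference of -0.99 ± 0.23 and an adjusted p of 0.0842 (edgeR). In LS *Plekhd1*/*Col6a3* neurons it was at 33.8, 42.0, 25.01 and 11.3 CPM (-1.08 ± 0.31, adjusted p = 0.113). By contrast, LS *Esr1*/*Otx2os1* neurons were almost level, with 11.3, 13.8, 12.2 and 11.8 CPM (-0.04 ± 0.33, adjusted p = 0.986). Of the 15 LSN types tested, 11 had a log2 difference below 0 and 4 above it. In 7 types both BALB/c background libraries lay below both C57J libraries, against 1 type the other way. The share of all genes with no overlap was not measured and the types share libraries, so no trend is read from these counts. With all LSNs summed, *Fam163a* was at 12.4, 13.8, 7.57 and 9.33 CPM from 1966 UMIs, a log2 difference of -0.61 ± 0.17 that was not called (adjusted p = 0.156, edgeR; 380 of 18754 genes, 2.03%, were called).

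Among the other neurons, *Slc17a6* glutamatergic neurons held 55.3, 60.5, 30.8 and 44.3 CPM (-0.53 ± 0.25, adjusted p = 0.928; 6 of 9968 genes, 0.0602%, were called). Striatal neurons held 7.24, 6.75, 2.43 and 1.41 CPM from 50, 17, 4 and 5 UMIs (-1.94 ± 0.49, adjusted p = 0.180, edgeR), and 61 of 12271 genes (0.497%) were called there. These striatal levels were below those in microglia in every library. *Lhx6* GABAergic neurons held 13.4 CPM in C57J 1 but 3.67 CPM in C57J 2, so their difference of -1.0 ± 0.53 (adjusted p = 0.585; 106 of 12457 genes, 0.851%, were called) turned to 0.21 without C57J 1. *Bnc2*/*Onecut1* neurons, where the gene was highest, had 0.51 ± 0.17 (adjusted p = 0.364), with both BALB/c background libraries above both C57J libraries. A UMI was found there in 51.9%, 46.3%, 53.3% and 82.3% of nuclei, and at 1000 UMIs per nucleus in 11.1%, 12.8%, 12.6% and 14.1%. These thinned shares lay close together. The CPM values, which are also scaled to depth, stood further apart, at 118, 114, 133 and 193. Over the 22 types tested, 7 differences were above 0 and 15 below, and 9 had an unadjusted p below 0.05 in edgeR. The share of all genes at such p-values was not measured.

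**Figure D4:**
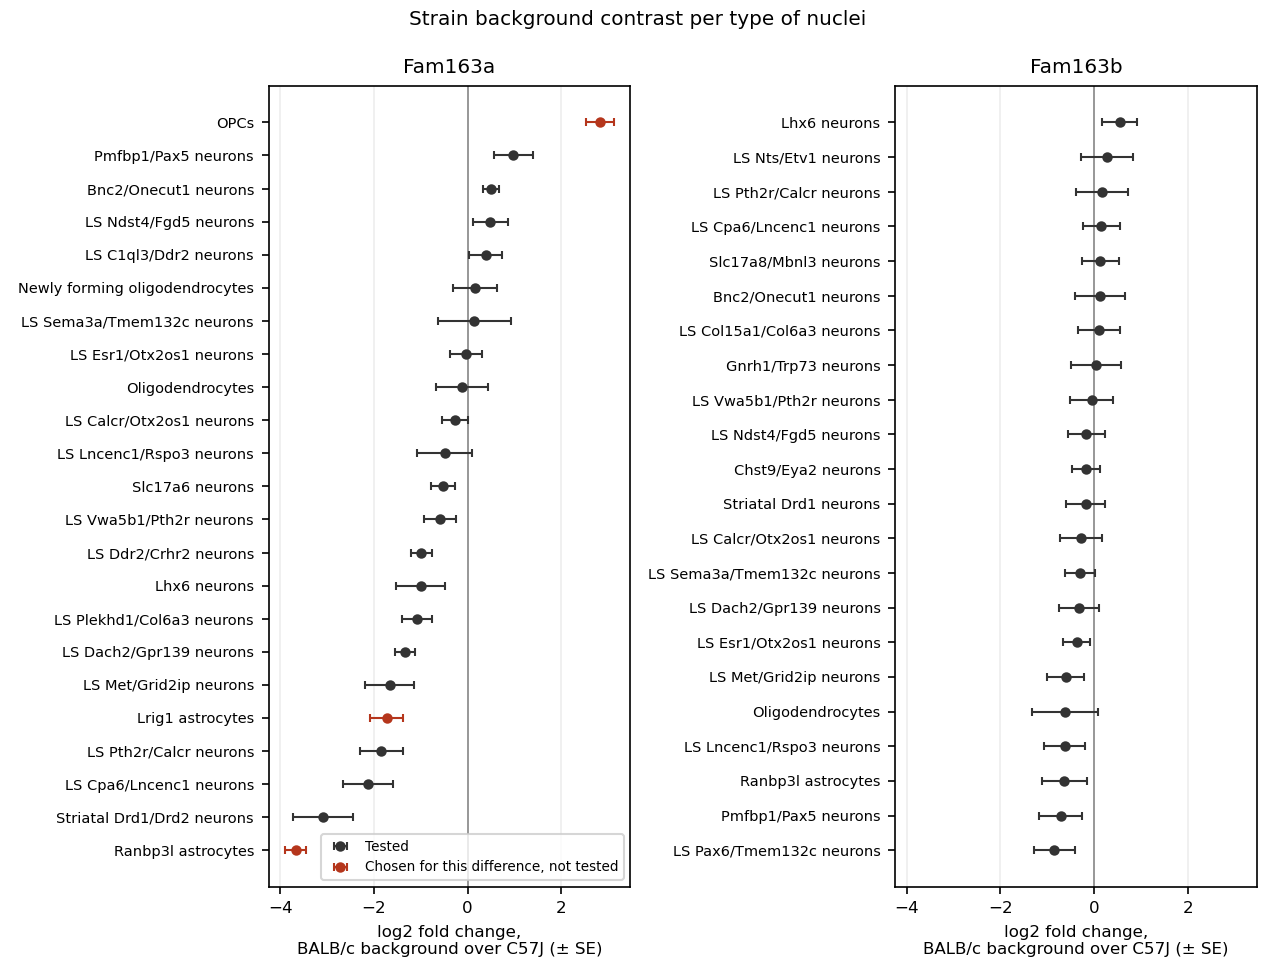
Log2 difference of *Fam163a* and *Fam163b* between the BALB/c background and C57J in types that passed the filter, with SE bars, red where the type was chosen for this difference. *Fam163a* spans OPCs at 2.82 and *Ranbp3l* astrocytes at -3.67, which are untested descriptions, and LS *Dach2*/*Gpr139* neurons at -1.34 are the called type, while the median of *Fam163b* over the types tested is -0.19.

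*Fam163b* had a different distribution. Its highest level was in *Chst9*/*Eya2* neurons, a cluster outside the LSNs, with 46.5, 36.8, 41.4 and 33.2 CPM (138 UMIs in 648 nuclei). This type was above the next, striatal *Drd1* neurons (21.1, 24.6, 14.6 and 21.7 CPM), in all 4 libraries. LS *Esr1*/*Otx2os1* neurons (22.0, 17.6, 13.6 and 16.4 CPM) and LS *Sema3a*/*Tmem132c* neurons (22.0, 16.2, 14.8 and 15.9 CPM) followed and were not separated from each other. LS *Cpa6*/*Lncenc1* neurons (10.4 ± 2.75 CPM, SD) were above LS *Vwa5b1*/*Pth2r* neurons (8.81 ± 2.86 CPM) in every library, and the remaining neighbours changed order between libraries. The mean was lowest, at 2.03 CPM, in striatal *Drd1*/*Drd2* neurons.

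In glia *Fam163b* was low in both backgrounds. OPCs held 5.33, 7.74, 3.96 and 0.724 CPM from 24 UMIs, which did not pass the filter. Astrocytes held 4.19, 3.82, 4.07 and 2.14 CPM from 73 UMIs, with a log2 difference of -0.38 ± 0.44 (adjusted p = 0.890, edgeR). Microglia held 6.12, 3.47, 3.83 and 4.65 CPM from 12 UMIs, so the values in OPCs and astrocytes were near those in microglia. OLs held 7.62, 3.83, 6.76 and 1.78 CPM (-0.62 ± 0.70, adjusted p = 1.00), and newly forming oligodendrocytes held 4 UMIs in all. A difference in OPCs or astrocytes like that of *Fam163a* was therefore not measured for *Fam163b*.

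**Figure D5:**
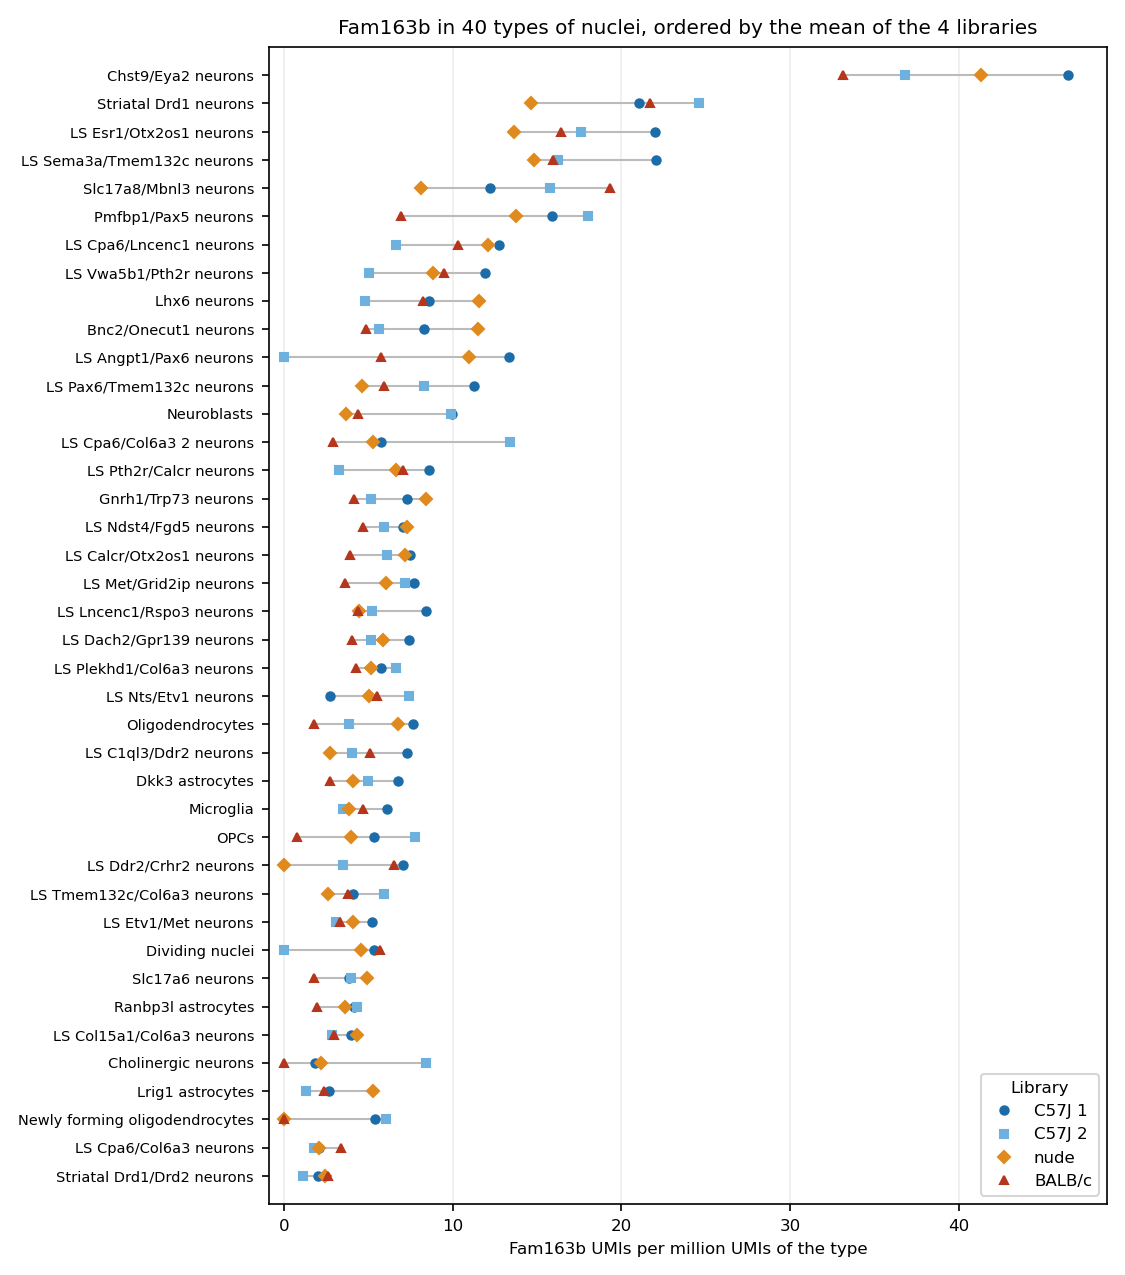
Level of *Fam163b* (CPM, linear axis) in the cell types of the LS, with 1 point per library, a line from the lowest to the highest library, and the types in order of their mean. *Chst9*/*Eya2* neurons, at 33.2 to 46.5 CPM, stand above the other types drawn in every library, and the points of the backgrounds are mixed in most types.

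*Fam163b* passed the filter in 23 of the 42 types and was called in 0 of them by edgeR and in 0 by DESeq2, with 0 types at an unadjusted p below 0.05. The log2 differences had a median of -0.19 and ran from -1.02 to 0.54. In 8 types both BALB/c background libraries lay below both C57J libraries, and in 0 types above. No trend is read from this count either, since the share of all genes with no overlap was not measured. In *Chst9*/*Eya2* neurons the difference was -0.18 ± 0.30 (adjusted p = 0.939). In LSNs summed, *Fam163b* was at 7.59, 5.91, 6.05 and 5.93 CPM from 1189 UMIs, a difference of -0.16 ± 0.20 (adjusted p = 0.796) that was 0.06 without C57J 1. *Lhx6* neurons had 0.54 ± 0.38 (adjusted p = 0.715) and striatal neurons -0.48 ± 0.37 (adjusted p = 0.755).

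Both genes were sparse at this depth. Of 49425 nuclei, 3151 held a *Fam163a* UMI, 1863 held a *Fam163b* UMI and 126 held both, of which 76 were LSNs. This overlap was not compared with the one that chance would give. *Bnc2*/*Onecut1* neurons held both in 26 of 792 nuclei. Across the 42 types the log2 levels of the genes had a Pearson correlation of -0.15 and a Spearman correlation of -0.08, over types that share the same libraries.

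Lists of genes tied to OPC and astrocyte identity and to ERK signalling were read in the same fits. In OPCs, 12 of 12 genes of OPC identity passed the filter and 0 were called by edgeR, with a median log2 difference of 0.15 against 0.00 for all genes tested. The largest differences of this list were those of *Olig1*, a transcription factor of the lineage (0.55 ± 0.30, adjusted p = 0.734), and *Pdgfra*, the receptor that drives OPC growth (0.49 ± 0.21, adjusted p = 0.645). In astrocytes, 12 of 12 genes of astrocyte identity were tested and 0 were called, with a median of 0.02 against -0.02 for all genes, and the largest difference was -0.45 ± 0.24 for the filament gene *Gfap* (adjusted p = 0.759). Genes that respond to ERK signalling were tested for 13 of 15 in each class, with 0 called. Their median was 0.16 in OPCs, led by *Etv1* (0.45 ± 0.22) and *Phlda1* (0.37 ± 0.23), and -0.05 in astrocytes, led by *Egr1* (-0.50 ± 0.33) and *Phlda1* (-0.47 ± 0.29). The neuron markers had medians of -0.18 and -0.28 with 0 of 8 called. The astrocyte list in OPCs had a median of -0.03 with 0 of 11 called, and the OPC list in astrocytes -0.31 with 0 of 12 called. At an unadjusted p below 0.05 in edgeR there were 2 OPC genes, 2 astrocyte genes, 0 neuron markers and 0 ERK genes in OPCs. In astrocytes there were 0 astrocyte genes, 1 OPC gene, 0 neuron markers and 0 ERK genes. DESeq2 called 0 genes of these lists in OPCs and 0 in astrocytes. Single genes of myelin had lower values in nude and BALB/c without an edgeR call. In OPCs these were *Mbp* (-1.04 ± 0.19, adjusted p = 0.084), which DESeq2 called, and *Mobp* (-1.0 ± 0.25, adjusted p = 0.251). In astrocytes they were *Mag* (-1.20 ± 0.22, adjusted p = 0.228) and *Mbp* (-1.03 ± 0.20, adjusted p = 0.236).

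The genes beside *Fam163a* on chromosome 1 were read in the same fits. In OPCs and astrocytes they are not set against *Fam163a*, which was chosen for its difference there. On the side of lower coordinates *Tor1aip2* lies 7105 bases away, followed by *Tor1aip1* at 39486 bases and *Cep350* at 102711 bases, genes for proteins of the nuclear envelope and the centrosome. In OPCs their log2 differences were 0.25 ± 0.23, -0.22 ± 0.20 and 0.07 ± 0.16. In astrocytes they were -0.20 ± 0.18, -0.11 ± 0.17 and 0.03 ± 0.16, and *Tdrd5*, 50270 bases away on the other side, had -0.04 ± 0.57. None of these was called, with adjusted p-values of 0.855 to 0.995 (edgeR). In LSNs, where *Fam163a* had -0.61 ± 0.17, *Tor1aip1* had -0.43 ± 0.10 (adjusted p = 0.106) and *Tdrd5* -0.78 ± 0.18 (adjusted p = 0.110). Neither was called by edgeR, and *Tdrd5* was called by DESeq2. *Tor1aip2* had -0.06 ± 0.09 and *Cep350* -0.11 ± 0.07. Of the neighbours of *Fam163b* on chromosome 2 only *Sardh*, 45902 bases away, passed the filter in astrocytes (0.06 ± 0.23, adjusted p = 0.970), and 0 of 6 passed in OPCs.

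Genes whose levels over the 42 types were most like those of *Fam163a* were found among 13833 genes with at least 10 CPM in some type. They were *Trak2* (Pearson r = 0.60), *Kcna2* (0.58), *Onecut2* (0.58), *Pofut2* (0.57) and *Col9a1* (0.57), from the mean of 4 libraries. *Trak2* encodes an adaptor of mitochondrial transport, *Kcna2* a potassium channel and *Onecut2* a transcription factor. For *Fam163b* they were *Pxylp1* (0.74), *Gm30371* (0.65), *Itga11* (0.62), *Fsip1* (0.62) and *Fxyd5* (0.61), of which all but *Fsip1* were highest in *Chst9*/*Eya2* neurons. These types share libraries and depth, and few of the names came back in a single library.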

How the data were processed

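snRNA-seq counts of 4 LS libraries were analysed. The authors aligned reads to mm10 with Cell Ranger 7.0.1 and deposited unnormalized UMI counts for each gene in each called barcode. Whether intronic reads were counted is not given in the sources used here.

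Nuclei with over 200 and under 6000 genes, over 300 and under 50000 UMIs and under 2% mitochondrial UMIs were kept, and predicted doublets (0.8% per 1000 nuclei) were removed by similarity to simulated doublets. Nuclei were clustered (Leiden, resolution 1, scikit-learn 1.9.0, leidenalg 0.10.2) without 262 genes that differed between backgrounds, the members and the ERK genes, and named from at least 3 markers of a type. Clusters led by markers of another class stayed unnamed (0.761 to 3.62% of nuclei per library). Naming limits were settled with nuclei per library visible but before the members' values were printed.

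UMIs were summed per library and type and tested with edgeR 4.0.16 (quasi-likelihood, filterByExpr, TMM, Benjamini-Hochberg over all genes tested in the type), in R 4.3.3. DESeq2 1.42.0, other size factors, no filter on low counts, kept doublets, stricter quality limits, other clusterings, thinning to 1000 UMIs and leaving out each library were also tried. The library, a pool of 3 mice, was the replicate, so spread between animals was not measured, and p-values describe 4 libraries. SEs were taken from the quasi-likelihood F statistic. The fit was tested on simulated data. Gene positions were read from GENCODE vM21.

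The members and gene lists were chosen with earlier results of these data known. Named genes were the members, their 5 most alike genes, the called or else largest differences of each list in OPCs and astrocytes, and tested neighbours. Some cell types, 1 marker list and some neighbouring genes are not reported here.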

Additional observations from a re-analysis of the deposited data

Results flagged for a closer look

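Among the cell groups in which *Fam163a* passed the filter on low counts, every library of 1 background lay above every library of the other in 17, with the direction differing between groups. Groups under the filter, some of which did not overlap either, and the OPC subset without maturation markers are not counted. Whether the differences of the groups differ from each other was not tested. The share of all genes that separate in this way was not measured, so nothing is read from the count of 17. The nude and BALB/c libraries were both above both C57J libraries in 3 of these groups, with log2 differences of 2.82 in OPCs, 0.51 in *Bnc2*/*Onecut1* neurons and 0.49 in LS *Ndst4*/*Fgd5* neurons.

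They were both below in 14 of these groups. In glia the log2 differences were -3.21 in astrocytes, -3.67 in the *Ranbp3l* astrocytes and -1.73 in the *Lrig1* astrocytes among them. In neurons they were -0.61 in LSNs together, -0.53 in *Slc17a6* neurons, -1.94 in striatal neurons and -3.10 in the striatal *Drd1*/*Drd2* neurons among them. In single LSN types they were -2.13 in LS *Cpa6*/*Lncenc1*, -1.84 in LS *Pth2r*/*Calcr*, -1.67 in LS *Met*/*Grid2ip*, -1.34 in LS *Dach2*/*Gpr139*, -1.08 in LS *Plekhd1*/*Col6a3*, -0.99 in LS *Ddr2*/*Crhr2* and -0.59 in LS *Vwa5b1*/*Pth2r* neurons. The OPC and astrocyte values are the ones the gene was chosen for, and the groups share libraries and partly nuclei. Some rest on few UMIs, with 4 in nude and 5 in BALB/c striatal neurons and 36 in all in LS *Cpa6*/*Lncenc1* neurons. Striatal, striatal *Drd1*/*Drd2*, LS *Met*/*Grid2ip* and LS *Cpa6*/*Lncenc1* neurons were below microglia in every library, so their differences are between low levels. Microglia, under the filter, held 10.7, 13.9, 9.58 and 5.81 CPM from 25 UMIs, and were themselves lower in both BALB/c background libraries. Striatal *Drd1*/*Drd2* neurons held 7.42, 6.12, 0.805 and 0.740 CPM from 47 UMIs. Striatal *Drd1* neurons overlapped, at 6.87, 5.27, 8.78 and 1.67 CPM from 22 UMIs, and did not pass the filter.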

How the results depend on the processing

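The directions of *Fam163a* in OPCs and astrocytes were the same under every alternative run, at 2.37 to 3.77 and -3.67 to -1.73 on the log2 scale. In OPCs the value moved to 2.37 with predicted doublets kept, to 3.27 with nuclei thinned to 1000 UMIs and, in a comparison added after the data were seen, to 3.77 without OPCs holding *Enpp6*, *Bcas1* or *Gpr17*. In astrocytes it moved to -2.78 with thinning and, also added later, to -3.67 in *Ranbp3l* and -1.73 in *Lrig1* astrocytes alone. The call in LS *Dach2*/*Gpr139* neurons was made under all 8 alternatives run for it (-1.55 to -1.18). These were DESeq2, other size factors, no filter on low counts and each library left out, all on the same nuclei. Kept doublets, stricter quality limits, other clusterings, marker scores and thinning were not run as fits for this type. Without a filter on low counts *Fam163a* was called in striatal neurons (-1.95, adjusted p = 0.0135, against 0.0135 to 0.850 over the alternatives).

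Some of the values not called turned direction with single libraries. Others kept their direction under every alternative, namely *Fam163a* in LSNs, *Slc17a6* and striatal neurons. So did *Fam163b* in *Lhx6*, striatal and LS *Dach2*/*Gpr139* neurons. *Fam163a* in newly forming oligodendrocytes ran from -0.53 without nude to 0.81 (-0.20 without C57J 2). It was -0.055 with classes from marker scores, where its level was 54.9 CPM, the lower end of 54.9 to 185 CPM over 2 alternatives. Thinning left too few counts in this class for a fit. In OLs *Fam163a* ran from -0.56 to 0.42 (0.25 without C57J 1, 0.42 without BALB/c), and in *Lhx6* neurons from -1.65 without C57J 2, which was called (adjusted p = 0.0237), to 0.21 without C57J 1. *Fam163b* ran from -0.78 to 0.041 in astrocytes (above 0 without BALB/c), from -1.54 to 0.23 in OLs (0.02 without C57J 1, 0.23 without BALB/c) and from -0.34 to 0.061 in LSNs (above 0 without C57J 1). The cause was not tested.

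Counts of called genes moved most. Without a filter they were 185 in OPCs, 92 in astrocytes, 39 in newly forming oligodendrocytes, 230 in OLs, 1046 in LSNs, 112 in *Slc17a6*, 391 in *Lhx6*, 413 in striatal and 381 in LS *Dach2*/*Gpr139* neurons. With DESeq2 they were 95 in astrocytes, 75 in OLs, 659 in LSNs and 12 in *Slc17a6* neurons. With 1 library left out, a lone library being assumed to vary like the other group, they were 37 to 464 in OPCs, 0 to 718 in astrocytes, 2 to 165 in newly forming oligodendrocytes, 0 to 729 in OLs, 56 to 1070 in LSNs, 0 to 405 in *Slc17a6*, 164 to 359 in *Lhx6*, 27 to 301 in striatal and 96 to 387 in LS *Dach2*/*Gpr139* neurons. The highest counts in OPCs, astrocytes, newly forming oligodendrocytes, OLs and *Slc17a6* neurons came without nude, and the others without C57J 2.

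Shares of nuclei with a UMI, averaged over libraries, were after thinning 8.87% for *Fam163a* in newly forming oligodendrocytes and 1.01% in LSNs, and for *Fam163b* 0.438% in OPCs, 0.343% in astrocytes and 0.700% in LSNs. Of the 5 genes most like *Fam163a*, 2 remained with Spearman ranks and, with a library taken alone, 2 in C57J 1, 1 in BALB/c and 0 in the others. Of those most like *Fam163b*, 1 remained with ranks and 1, 0, 2 and 0 in the single libraries. No paired analysis was possible because the groups compared are pools of different mice with no matched libraries.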

Other observations

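Rare cells held *Fam163a* at levels that 1 library cannot settle. LS *Ecel1*/*Plekhd1* neurons, 12 to 26 nuclei per library, were at 148 and 101 CPM in the C57J libraries, against 34.8 CPM in the nude library and 128 CPM in the BALB/c library. Dividing OPCs, 13 to 27 nuclei per library, held 8.46, 0, 115 and 41.6 CPM from 8 UMIs in all, with exact Poisson 95% intervals of 0.214 to 47.1, 0 to 62.3, 31.2 to 294 and 8.59 to 122. Neuroblasts, the migrating precursors of olfactory neurons, held 17.4, 9.90, 0 and 1.45 CPM from 11 UMIs. In each of these groups *Fam163a* had too few UMIs or nuclei for a test, and none was run. Neuroblasts held 150 to 192 nuclei per library, so there it was the gene's count that was low.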
